A study of Xenopus laevis with 3 samples.

Results

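The let-7 family is a set of microRNAs, counted here in Xenopus laevis larvae, in neuronal tissue from the accessory olfactory bulb, where fibres of the vomeronasal organ end. Its members were taken by name, as the entries of the deposited table with a Xenopus prefix that are called let-7, whatever their letter and arm. There were 7 such entries among 1272, namely xtr-let-7a, xtr-let-7b, xtr-let-7c, xtr-let-7e, xtr-let-7f, xtr-let-7g and xtr-let-7i, and they were 7 of the 178 Xenopus entries. All 7 are X. tropicalis entries (prefix xtr), used here for X. laevis tissue, and none has the prefix of X. laevis or X. borealis. The larvae were at stage 45, 15 days old, and were raised in an orphan, a sibling or a non-sibling condition. Each condition had 1 library (n = 1), 15 larvae are named in the labels, which do not tell if this is the number per condition, and the labels give no strain, allele or agent. Every ratio below therefore compares libraries, has no replicate check and no p-value, and its 95% interval covers counting error only. The library method is not known here, and where reads are PCR copies of the same molecule these intervals are too narrow. Where 3 values follow each other they are in the order orphan, sibling, non-sibling.

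let-7 is one of the founding microRNAs, known from the worm Caenorhabditis elegans for timing the passage from larval to adult cell fates. A microRNA guides the silencing complex to messenger RNAs mainly through its seed, the bases near its 5′ end, and the rest of the sequence distinguishes the paralogs of a family. In vertebrates let-7 is held back in stem and progenitor cells by the RNA-binding protein Lin28, which blocks the processing of its precursors, and it is known for restraining growth genes as cells differentiate, neural progenitors among them.

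The mature sequences of the 7 members are shown because the comparison of paralogs rests on them. They are given 5′ to 3′ as in the deposited table, with the seed (bases 2 to 8, counted from 1 at the 5′ end) in capitals.
xtr-let-7a: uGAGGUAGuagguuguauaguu
xtr-let-7c: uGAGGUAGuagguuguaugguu
xtr-let-7e: uGAGGUAGuagguuguuuaguu
xtr-let-7f: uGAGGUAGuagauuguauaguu
xtr-let-7b: uGAGGUAGuaguuuguguaguu
xtr-let-7g: uGAGGUAGuuguuuguacagu
xtr-let-7i: uGAGGUAGuaguuugugcugu
The seed was the same in all 7, and the members differed at 5 positions, between base 10 and base 19. Read against let-7a, let-7c carries A19G, let-7e carries A17U and let-7f carries G12A, so each of these 3 is 1 base from let-7a. let-7b carries G12U and A17G, let-7g carries A10U, G12U and U18C, and let-7i carries G12U, A17G, U18C and A19U. The entries of let-7g and let-7i are 21 bases long and the other 5 are 22 bases long. A further Xenopus entry outside the let-7 names, xtr-miR-98, has the same seed.

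Entries of other species show which let-7 forms the reads matched. The table holds 31 further let-7 entries, and several lie 1 base from a Xenopus member. 4 forms that differ from let-7a by A10U (aae-let-7), U9G (cfa-let-7e), G15A (spu-let-7) or U18A (pma-let-7d) had 1 count each in the orphan library, beside 4089 counts of xtr-let-7a. hme-let-7, which differs from let-7a at its last base (U22A), had 434, 35 and 257 counts, the same as an entry for let-7a without its last 2 bases, mse-let-7a. The form of let-7g listed for the lizard Anolis, aca-let-7g, differs from xtr-let-7g by U10A and had 3 counts in the orphan library and 0 in the others, against 358, 16 and 81 counts of xtr-let-7g. The cattle form of let-7b, bta-let-7b, lies nearest to xtr-let-7c, from which it differs by A17G. It had 20, 0 and 9 counts, or 0.564, 0 and 0.735% of the xtr-let-7c count, while xtr-let-7b had 13 counts for siblings and 68 for non-siblings. These forms are shown to be set beside the Xenopus ones.
aca-let-7g: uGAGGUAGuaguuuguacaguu
bta-let-7b: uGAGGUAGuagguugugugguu
For let-7g and let-7b the reads thus fell mostly on the Xenopus form. A count of 0 allows up to 3 counts in a library.

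Entries with 1 and the same sequence did not always have the same count. The sequence of xtr-let-7a is also listed for the worm as cel-let-7-5p, with 4636, 290 and 1944 counts, which is 1.13, 1.06 and 1.11 times the counts of xtr-let-7a. For let-7f the spread was smaller, with 7201 counts of xtr-let-7f and 7198 of aca-let-7f-5p in the orphan library, and let-7c stood at 3549 counts against 3595 of pol-let-7a-5p. Shorter entries contained in a member differed from it by varying amounts. ggo-let-7f, of 21 bases, had 6677 counts in the orphan library, whereas ggo-let-7c, also of 21 bases, had the same 3549 counts as xtr-let-7c. mse-let-7a, which is let-7a cut to 20 bases, had 434, 35 and 257 counts, or 10.6, 12.8 and 14.6% of the xtr-let-7a count. How reads of close paralogs were assigned is not given in the sources used here, so differences between let-7a and its neighbours that are as small as this spread are uncertain beyond their counting interval.

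The libraries differed in depth, with total counts of 22538325, 865654 and 5188106. The let-7 members summed to 18999, 1184 and 7069 counts, so the sibling library sets the precision of each comparison it enters. Entries of microRNA families with no Xenopus entry took 1.35, 5.81 and 1.64% of the counts. Their part in the let-7 results was not tested.

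let-7 was a minor family in this tissue. Its share of all counts was 0.0843% in the library of orphans (0.0831 to 0.0855%, exact binomial), 0.137% for siblings (0.129 to 0.145%) and 0.136% for non-siblings (0.133 to 0.139%). On this scale the sibling and non-sibling libraries could not be told apart, and the orphan library was lower than both. The total behind these shares includes entries of other species, which can list the same read again. Of the counts on Xenopus entries alone let-7 made up 0.422, 0.638 and 0.682%, again lowest in the orphan library. On this scale the non-sibling library stood above the sibling library, the reverse of their order on the scaled level below. No interval is given for these shares. Among the 178 Xenopus entries the leading member ranked 55, 49 and 54. As CPM scaled by trimmed means of M values (scaled CPM, used for all levels below and not divided by length, which is nearly equal among the members), the family total was 873 (861 to 886), 1674 (1580 to 1772) and 1075 (1050 to 1100). In bulk tissue, fewer cells that hold let-7 and less let-7 per cell cannot be told apart.

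By their counts the members fell into an abundant group of 4 and a scarce group of 3. How evenly the library method captured different sequences was not tested. Ratios between members within a library, here and below, therefore compare counts and need not be ratios of amounts. let-7f had 7201, 305 and 2112 counts, or 331, 431 and 321 scaled CPM. let-7a had 4089, 273 and 1755 counts, or 188, 386 and 267 scaled CPM. let-7c stood at 163, 315 and 186 scaled CPM, on 3549 counts in the orphan library. All of these were highest in the sibling library on the scaled level, and let-7e differed most between libraries. let-7e had 3135, 320 and 1714 counts, which is a scaled level of 452 CPM in the sibling and 261 CPM in the non-sibling library. The scarce members were let-7i with 484, 34 and 115 counts, let-7g with 358, 16 and 81 counts, and let-7b with 8.41, 18.4 and 10.3 scaled CPM, on 13 counts in the sibling library. The scaled levels of the scarce members lay between 8.41 CPM (let-7b, orphan) and 48.1 CPM (let-7i, sibling). The 4 abundant members together held 94.6, 94.7 and 96.3% of the family.

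**Figure D1:**
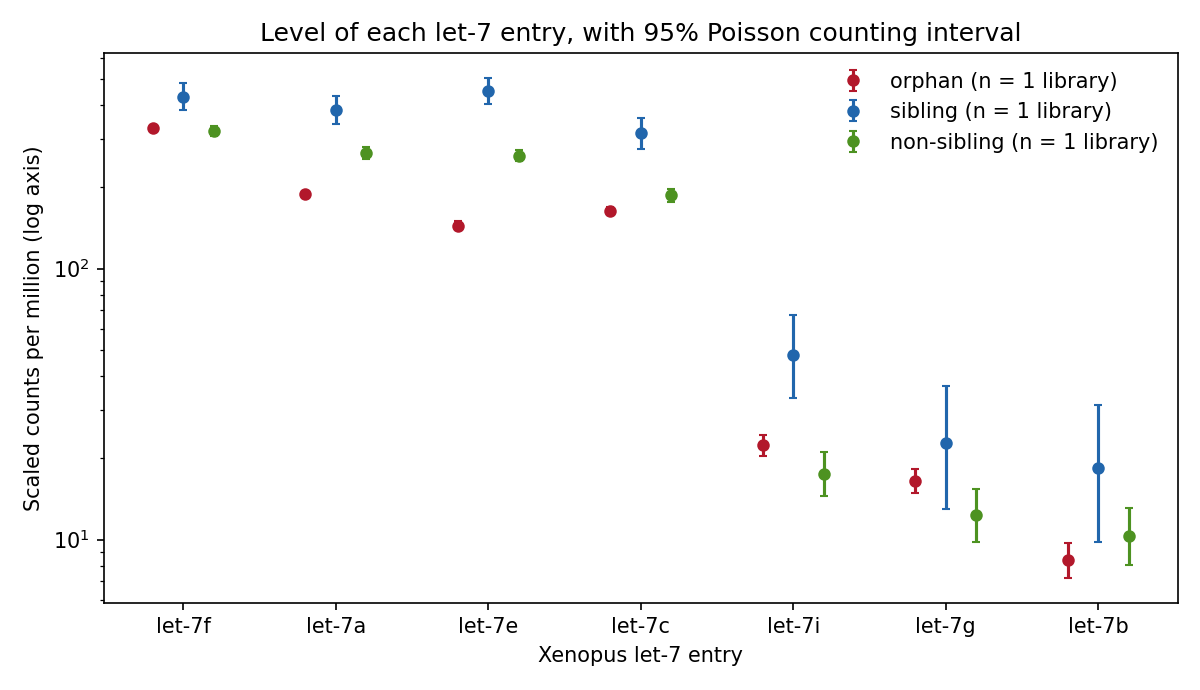
Level of each Xenopus let-7 entry in scaled CPM (log axis) in each of the 3 libraries (n = 1 each), with bars for the 95% Poisson counting interval. The 4 abundant members reach 452 scaled CPM and the 3 scarce ones lie between 8.41 and 48.1, and the sibling library has the widest bars.

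The gap between the groups was wide in each library. let-7e stood 6.48 times above let-7i in the orphan library (interval 5.88 to 7.14), let-7c 6.56 times above let-7i in the sibling library (4.56 to 9.71), and let-7c 10.6 times above let-7i in the non-sibling library (8.79 to 13.0). In all 3 libraries let-7i was followed by let-7g and then let-7b. let-7g and let-7b were distinct in the orphan library, at a ratio of 1.96 (1.63 to 2.35). Between the same entries the interval held 1 for siblings (1.23, 0.555 to 2.78) and for non-siblings (1.19, 0.852 to 1.67).

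Within the abundant group the order of levels differed between libraries. In the orphan library it was let-7f, let-7a, let-7c and let-7e, with each neighbour distinct beyond counting error. let-7f stood 1.76 times above let-7a there (1.69 to 1.83), let-7a 1.15 times above let-7c (1.10 to 1.21) and let-7c 1.13 times above let-7e (1.08 to 1.19), and the step from let-7c to let-7e is no larger than the 1.13-fold gap between both entries with the let-7a sequence, while the step from let-7a to let-7c is only just larger. In the sibling library the order was let-7e, let-7f, let-7a and let-7c. let-7e and let-7f did not differ beyond counting error there (1.05, 0.894 to 1.23), nor did let-7f and let-7a (1.12, 0.946 to 1.32). In the non-sibling library the order was let-7f, let-7a, let-7e and let-7c, and let-7a and let-7e did not differ beyond counting error (1.02, 0.957 to 1.10). That likeness rests on the xtr-let-7a entry. cel-let-7-5p, of the same sequence, had 1944 counts there, beside 1755 of xtr-let-7a and 1714 of let-7e.

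A share of the family total needs no scaling between libraries, so the make-up of the family was compared directly. Entries of close members can list the same read, so the family total can count a read more than once. The intervals do not cover this. let-7f made up 37.9% (37.2 to 38.6%), 25.8% (23.3 to 28.4%) and 29.9% (28.8 to 31.0%) of let-7 counts. let-7e made up 16.5% (16.0 to 17.0%), 27.03% (24.5 to 29.7%) and 24.2% (23.3 to 25.3%). The let-7f share was thus highest and the let-7e share lowest in the orphan library, with intervals that overlapped neither of the other libraries. let-7a made up 21.5, 23.1 and 24.8% and let-7c 18.7, 18.8 and 17.3%. let-7i made up 2.55, 2.87 and 1.63%, let-7g 1.88, 1.35 and 1.15%, and let-7b 0.963, 1.10 and 0.962%.

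**Figure D2:**
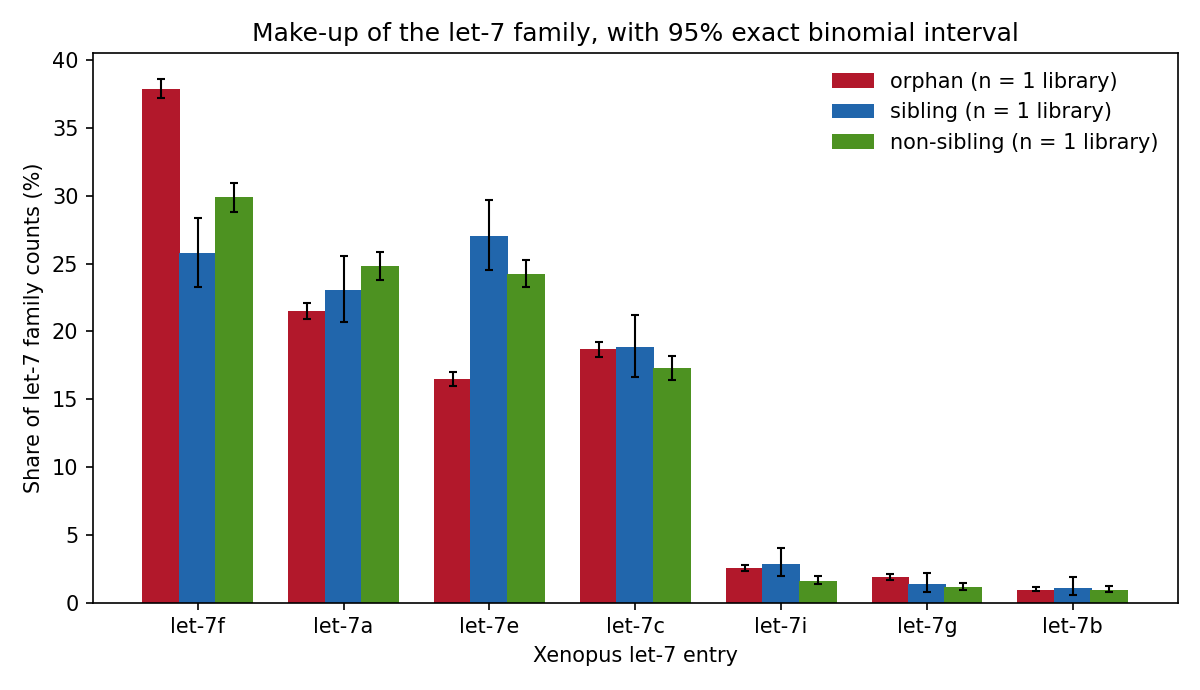
Share of the let-7 family counts (%, axis from 0) held by each member in each of the 3 libraries (n = 1 each), with bars for the 95% exact binomial interval. let-7f stands at 37.9% for orphans and 25.8% for siblings, and let-7e at 16.5% and 27.03%.

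The odds of a read being a given member were set against each other for each pair of libraries, which gave 21 odds ratios, of which 11 had an interval that excluded 1. They are not separate results, as the shares sum to the whole and the last pair of libraries follows from the others. Such counts depend on depth, and the share over members of other families is not given here. Between the orphan and the sibling library 2 of 7 did so. The odds of let-7f were 1.76 times as high in the orphan library (1.54 to 2.01) and those of let-7e were 0.534 times as high (0.467 to 0.610), and the shares that were higher there gained 12.7 percentage points in sum. Between the non-sibling and the sibling library 3 of 7 did so, with let-7f at 1.23 (1.07 to 1.41), let-7e at 0.864 (0.752 to 0.993) and let-7i at 0.559 (0.380 to 0.824), with a sum of gains of 5.89 percentage points. Between the deeper orphan and non-sibling libraries 6 of 7 did so, with a sum of gains of 11.1 percentage points. let-7f was at 1.43 (1.35 to 1.52), let-7c at 1.10 (1.02 to 1.18), let-7g at 1.66 (1.30 to 2.11) and let-7i at 1.58 (1.29 to 1.94), whereas let-7a was at 0.830 (0.779 to 0.885) and let-7e at 0.617 (0.578 to 0.660). Only let-7b did not differ beyond counting error in that pair (0.757 to 1.32).

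let-7f and let-7e, which differ from each other by G12A and U17A (let-7e base first), give the exchange as a single number. let-7f stood at 2.30 (2.20 to 2.40), 0.953 (0.812 to 1.12) and 1.23 (1.16 to 1.31) times the let-7e count. With the 21-base entry of let-7f in place of the Xenopus entry, a choice made after seeing the data, these were 2.13, 0.925 and 1.18. The order of the 3 libraries was the same with either entry, and the sibling interval held 1.

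Between the orphan and the sibling library all 7 members had a lower scaled level in the orphan library, and 6 of the 7 intervals lay below 1. The share of all entries with an interval below 1 is not given here. let-7e was at 0.318 times the sibling level (0.284 to 0.358), let-7b at 0.458 times (0.261 to 0.876), let-7i at 0.463 times (0.327 to 0.676) and let-7a at 0.487 times (0.431 to 0.552). let-7c was at 0.517 times (0.452 to 0.595) and let-7f at 0.767 times (0.684 to 0.863). The interval of let-7g held 1 (0.727, 0.442 to 1.29), on 16 sibling counts. By the size rule (2-fold or more in either direction, with 1 outside the interval) 4 of 7 members were lower, 0 were higher and 3 were neither, with let-7a just inside and let-7c just outside the limit of 0.5. Of the 866 entries with at least 30 counts over the libraries, 15.5% were lower and 8.89% higher by that rule, and of the 164 Xenopus entries among them 13.4% were lower and 8.54% higher. The median log2 ratio of the 7 members was -1.04, beside 0.06 over the 866 entries and 0.12 over the 164 Xenopus entries. The ratio of the family totals was 0.522 (0.492 to 0.554).

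The count of 4 rests on the scaling of the libraries. With total counts, with upper-quartile scaling or with the quantile-normalized values of the authors only 1 member, let-7e, passed the same fold. Over all 866 entries 77 were higher and 134 lower, against 121 and 118 with total counts and 201 and 127 with the quantile-normalized values. The direction below 1 was kept by all 7 members under each of the alternatives run.

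**Figure D3:**
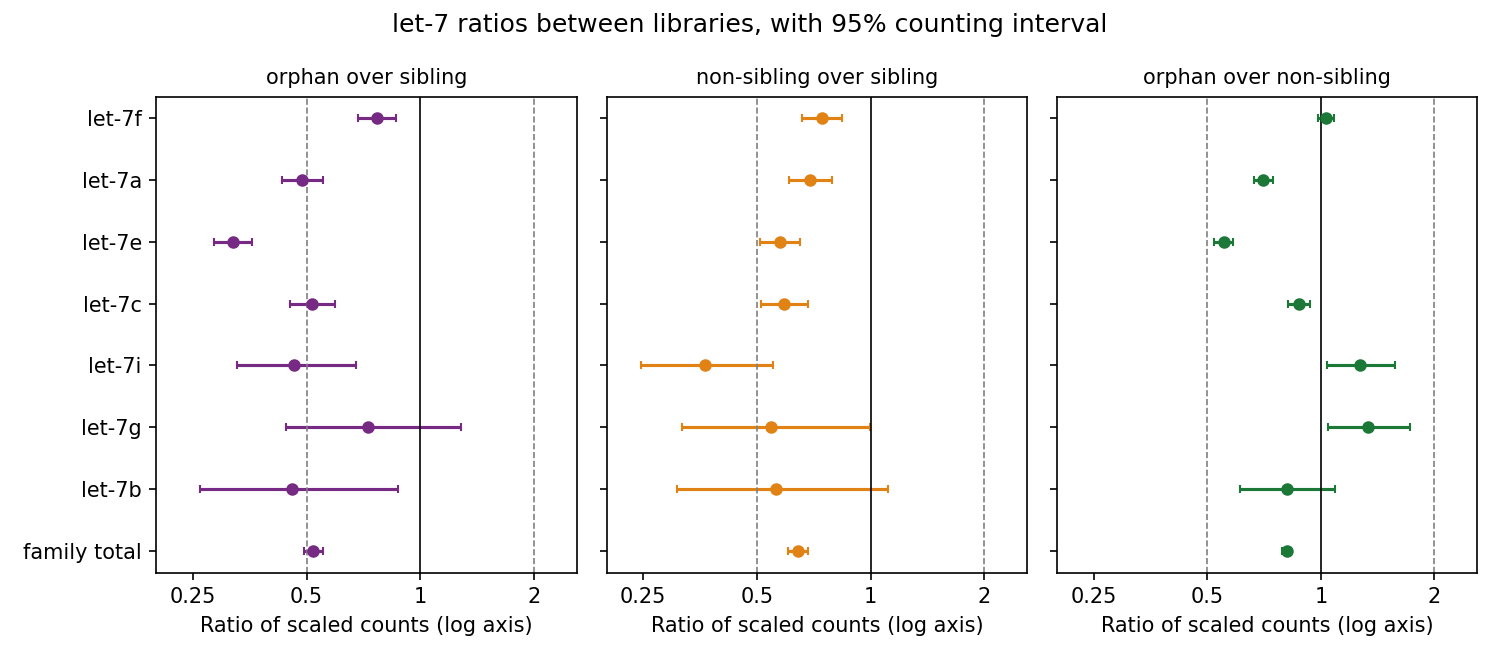
Ratio of scaled counts between libraries (log axis) for each let-7 entry and the family total, with bars for the 95% counting interval, a solid line at 1 and dashed lines at 0.5 and 2. Against the sibling library every point lies below 1, and between the orphan and non-sibling libraries they spread from 0.553 for let-7e to 1.34 for let-7g.

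Between the non-sibling and the sibling library the scaled levels were again below 1 for all 7 members, but that direction depended on the scaling. let-7i was at 0.364 times the sibling level (0.246 to 0.550), on 115 and 34 counts, and was the only one of the 7 past the size rule, which 12.1% of all entries passed downward and 11.2% upward, and 9.76% and 14.6% of the Xenopus entries. let-7e was at 0.576 times (0.511 to 0.651), let-7c at 0.590 times (0.511 to 0.684), let-7a at 0.691 times (0.608 to 0.788) and let-7f at 0.745 times (0.660 to 0.843). let-7g was at 0.544 times (0.316 to 0.998) and the interval of let-7b held 1 (0.563, 0.308 to 1.11). The ratio of the family totals was 0.642 (0.604 to 0.683), and the median log2 ratio of the members was -0.80 beside -0.03 over all entries. With total counts, which move every log2 ratio of this pair by 0.63, the log2 ratio of the family total was -0.01 instead of -0.64, those of let-7a and let-7f turned to 0.10 and 0.21, and let-7i, at -0.84, no longer passed the rule. Over all entries 97 were higher and 105 lower in this pair, against 280 and 57 with total counts.

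Between the orphan and the non-sibling library, the deeper pair, the members divided. let-7e had a ratio of orphan over non-sibling of 0.553 (0.521 to 0.587), let-7a of 0.704 (0.666 to 0.745) and let-7c of 0.876 (0.821 to 0.936). let-7g had 1.34 (1.05 to 1.72) and let-7i 1.27 (1.04 to 1.57). The intervals of let-7f (1.03, 0.981 to 1.08) and let-7b (0.813, 0.612 to 1.09) held 1. None of the 7 passed the size rule, which 12.6% of all entries passed downward and 7.51% upward, and 12.8% and 8.54% of the Xenopus entries. The ratio of the family totals was 0.812 (0.790 to 0.835). The median log2 ratio of the members was -0.19, beside 0.02 over all entries. Over all entries 65 were higher and 109 lower, against 30 and 225 with total counts, 46 and 138 with Xenopus entries alone and 100 and 97 with the upper quartile. The sign of let-7b, let-7c, let-7f and let-7i in this pair turned under at least 1 of the alternatives, whereas let-7a and let-7e stayed below 1 and let-7g above 1 under each of them. Differences between members need no scaling, and of the 21 pairs of members 17 had a ratio of their ratios whose interval excluded 1. For let-7e against let-7f that was 0.536 (0.497 to 0.579), and for let-7e against let-7g 0.414 (0.323 to 0.530). In the comparisons with the shallower sibling library fewer such intervals excluded 1, namely 8 of 21 for orphan over sibling and 7 of 21 for non-sibling over sibling. These counts depend on depth, and the share over pairs of other entries is not given here.

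**Figure D4:**
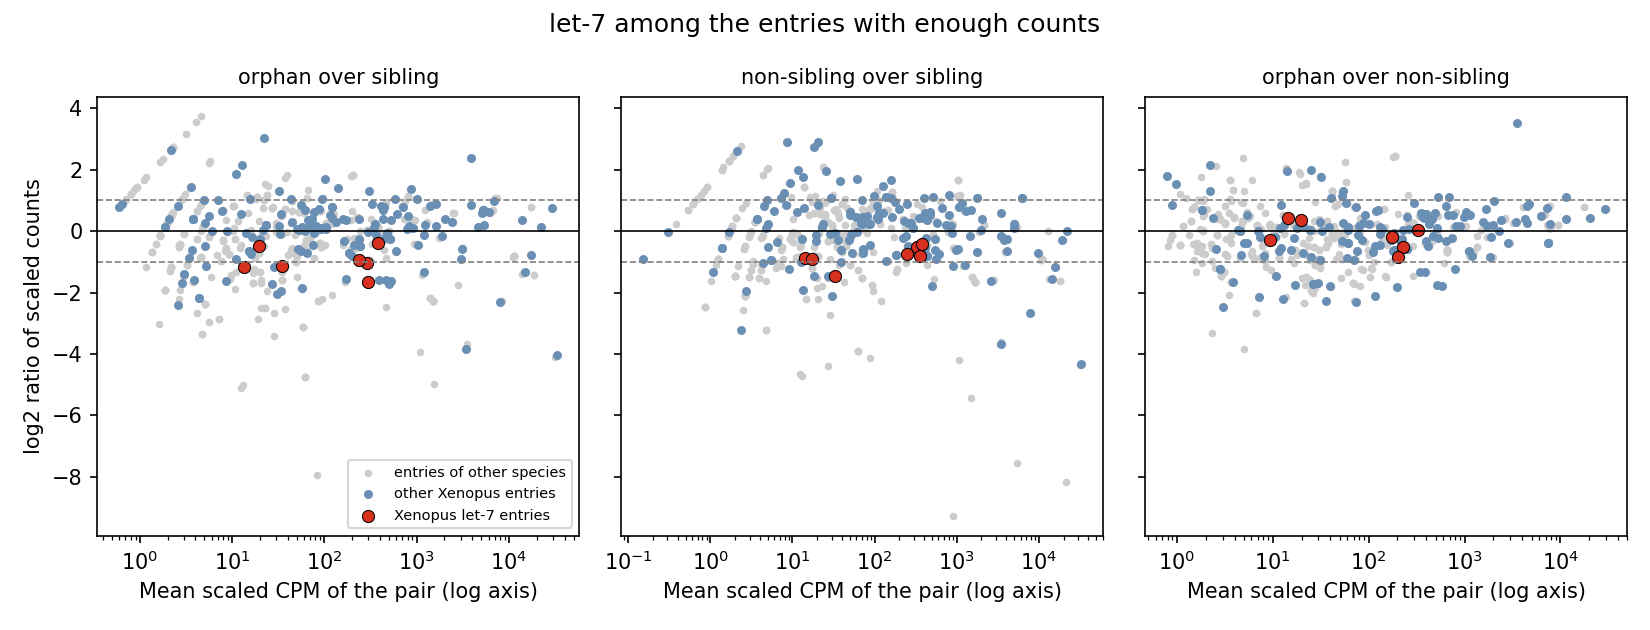
log2 ratio of scaled counts against the mean scaled CPM of each pair of libraries (log axis) for the 866 entries with at least 30 counts, with let-7 in red, other Xenopus entries in blue and entries of other species in grey, and dashed lines at a 2-fold ratio. The let-7 entries lie below 0 in both comparisons with the sibling library and on both sides of 0 between the orphan and non-sibling libraries.

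In the authors' deposited table the log2 ratio of sibling over orphan was above 0 for all 7 members, from 0.14 for let-7g to 1.44 for let-7e. The authors' deposited table gave log2 ratios of non-sibling over sibling from -1.02 for let-7i to -0.30 for let-7f. For non-sibling over orphan the authors' deposited table had let-7e at 0.61, let-7a at 0.29 and let-7f at 0.06, with the other 4 below 0 down to -0.44 for let-7i. Those ratios fit an offset of 102 added to each quantile-normalized value, which pulls the scarce members towards 0: let-7b, at 86.7, 141.5 and 81.7 quantile-normalized counts, had 0.37 there for sibling over orphan, a log2 ratio from the authors' deposited table.

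**Figure D5:**
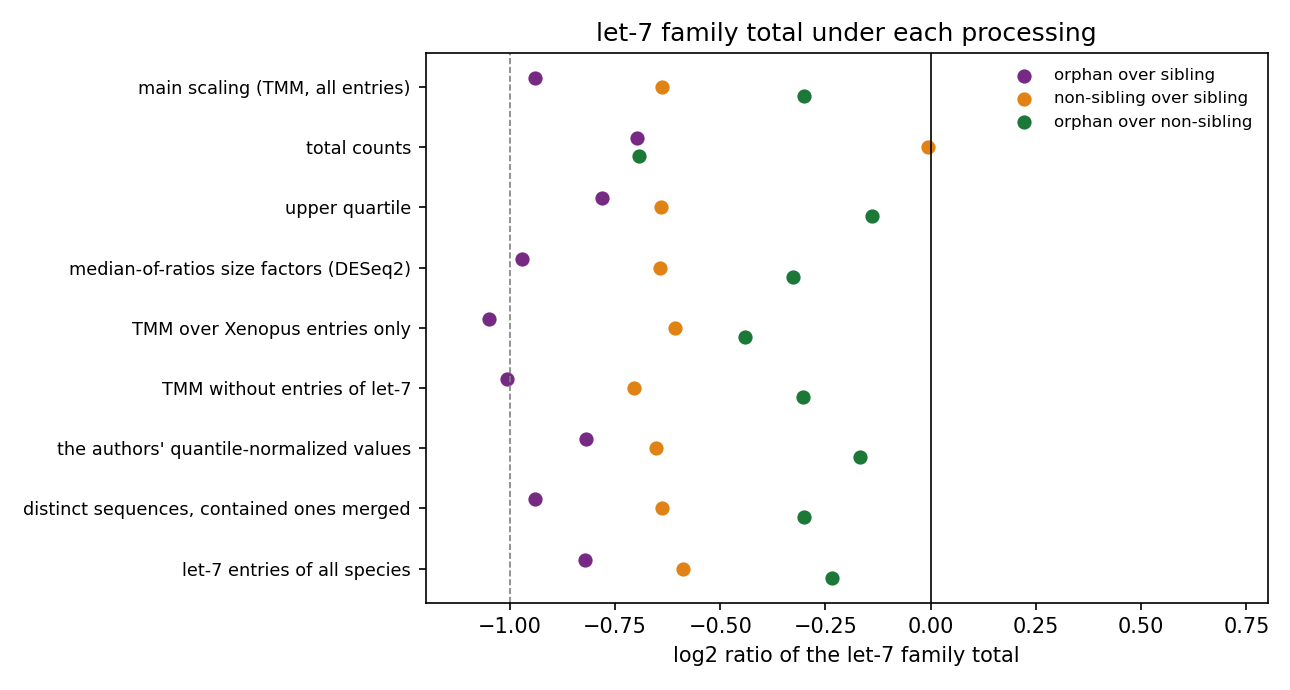
log2 ratio of the let-7 family total for the 3 pairs of libraries (points) under the scaling used here and 8 other ways of processing (rows), with a solid line at 0 and a dashed line at a 2-fold ratio. Orphan over sibling lies between -1.05 and -0.70 throughout, whereas non-sibling over sibling reaches -0.01 with total counts.

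xtr-miR-98, which shares the let-7 seed, had 266, 14 and 124 counts. It was at 0.618 times the sibling level in the orphan library (0.362 to 1.15), at 0.953 times in the non-sibling library (0.547 to 1.79), and at 0.648 times the non-sibling level in the orphan library (0.522 to 0.809). xtr-miR-202-5p, listed together with miR-98 but without the let-7 seed, had 1 count in the orphan library and 0 in the others.

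miR-99, miR-100 and miR-125 are encoded beside let-7 in clusters of vertebrate genomes, and miR-125 is the relative of lin-4, the other classic timing microRNA of the worm. Their 4 Xenopus entries stood together at 11073, 20233 and 8363 scaled CPM, of which xtr-miR-99 held only 291, 297 and 212. xtr-miR-125a had 58918, 9434 and 13897 counts and was at 0.203 times the sibling level in the orphan library (0.199 to 0.207) and at 0.158 times in the non-sibling library (0.154 to 0.163). xtr-miR-125b had 14998, 1229 and 5298 counts, with ratios of 0.397 (0.374 to 0.421) and 0.464 (0.436 to 0.494). Both miR-125 entries thus stood highest in the sibling library on the scaled level, as the let-7 total did on that level. xtr-miR-100 had 160728, 3438 and 34415 counts and did not follow, at 1.52 times the sibling level in the orphan library (1.47 to 1.57) and 1.08 times in the non-sibling library (1.04 to 1.12). xtr-miR-99 had 6324, 210 and 1391 counts and was at 0.979 times the sibling level in the orphan library (0.853 to 1.13) and at 0.712 times in the non-sibling library (0.616 to 0.828).

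The let-7 family total was set against these cluster partners within a library, which needs no scaling. All members entered the total, and those encoded beside the partners were not singled out, as no genome was used. The libraries fell into 1 order beside miR-100 and miR-99 and into another beside the miR-125 entries. There were 11.8, 34.4 and 20.5 let-7 counts per 100 counts of miR-100, and 300.4, 564 and 508 per 100 counts of miR-99. Per 100 counts of miR-125b there were 127, 96.3 and 133.4 let-7 counts, and per 100 counts of miR-125a 32.2, 12.6 and 50.9. The sibling library therefore had the highest value of the 3 beside miR-100 and miR-99 and the lowest beside miR-125a and miR-125b. Beside miR-99 its interval (486 to 656) overlapped that of the non-sibling library (480 to 539). Beside miR-125b the orphan (124.0 to 129.4) and non-sibling (128.7 to 138.3) intervals overlapped, so these steps of the order are uncertain.

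Markers of the cell types such a dissection could hold moved between the libraries as well, and their part in the let-7 ratios was not tested. The neuron list (miR-9, miR-124 and others) summed to 15688, 9713 and 19281 scaled CPM, and none of its 11 Xenopus entries was at 0. By the size rule 3 of the 11 were higher in the orphan than in the sibling library, against 8.54% of the Xenopus entries. By the same rule 4 of the 11 were higher in the non-sibling than in the sibling library, against 14.6%. On the scaled level the sibling library was thus lowest for the neuron list and highest for let-7. The digestive organ list (miR-192, miR-194, miR-215 and miR-122) summed to 448, 1335 and 1346 scaled CPM. By the size rule all 3 of its entries with enough counts were lower in the orphan library than in either other library. Of the Xenopus entries 13.4% were lower against the sibling and 12.8% against the non-sibling library. The eye and choroid plexus list summed to 19399, 23285 and 10441 scaled CPM, the sensory organ list to 52485, 34184 and 29539, the muscle list to 5315, 5276 and 3262, the skin epithelium list to 2939, 4161 and 4371 and the ciliated cell list to 86.5, 207.8 and 397. The cartilage and mesenchyme list summed to 4076, 3250 and 3046 scaled CPM, the vessel marker miR-126 to 1336, 1070 and 861 and the blood list to 26.9, 15.6 and 48.1. The blood sum of the sibling library rested on 11 counts, with xtr-miR-142-3p at 0.

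By the size rule 2 of 4 cluster partners, 4 of 20 entries of miR-17-92 and its paralogs, 1 of 3 skin entries and 2 of 5 ciliated cell entries were lower in the orphan than in the sibling library, against 13.4% of the Xenopus entries. Higher there were 1 of 20 miR-17-92 entries, 1 of 5 blood entries and 1 of 2 eye entries, against 8.54% of the Xenopus entries, and none of the 3 early embryo, 11 muscle, 2 vessel, 4 sensory or 5 cartilage entries passed in either direction. The blood entry, xtr-miR-451, rested on 3 sibling counts (ratio 4.24, 1.44 to 20.6). The blood entry that was higher in the non-sibling library rested on the same sibling counts. Between the non-sibling and the sibling library 2 of 4 partners, 5 of 20 miR-17-92 entries, 2 of 11 muscle entries and 2 of 2 eye entries were lower, against 9.76% of the Xenopus entries. In that pair 2 of 20 miR-17-92 entries, 1 of 5 blood entries, 1 of 3 skin entries and 2 of 5 ciliated cell entries were higher, against 14.6%. Between the orphan and the non-sibling library, where no let-7 member passed, 4 of 11 muscle, 2 of 20 miR-17-92, 1 of 11 neuron, 1 of 2 eye, 1 of 4 sensory and 1 of 5 cartilage entries were higher in the orphan library, against 8.54% of the Xenopus entries. All 5 ciliated cell entries, 1 of 5 blood and 1 of 3 skin entries were lower there, against 12.8%. The early embryo list summed to 113, 103 and 146 scaled CPM and the miR-17-92 list to 15154, 92431 and 13235, but the median log2 ratio of the latter's entries was 0.27 in both comparisons with the sibling library, so its sum was carried by few entries. The leading entry of the miR-17-92 list, xtr-miR-92a, a microRNA of dividing cells, was at 0.396 times the sibling level in the orphan library (0.389 to 0.402). It stood at 21321.5 scaled CPM in the sibling library, so most of the list's sum there lay on other entries.

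The profile of the let-7 total over the 3 libraries was compared with those of the other Xenopus entries with at least 1000 counts, by the distance between log2 levels centred on their mean. The nearest were miR-133d, a muscle microRNA listed with the same counts as xla-miR-133d and xtr-miR-133d (distance 0.26), and xtr-miR-129, on the neuron list (0.34). miR-133d stood at 142.4, 232 and 136 scaled CPM and xtr-miR-129 at 145, 253 and 224. With 3 libraries this likeness is a description only.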

How the data were processed

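Small RNA of 3 libraries (orphan, sibling and non-sibling, grouped by their titles) was used as 1 deposited table. Per the file headers it holds read counts per mature microRNA entry, whole numbers with no normalization, and a signal made by the authors, their quantile-normalized counts. It also holds log2 ratios of those values, deposited by the authors. How reads were aligned and counted, and against which microRNA release or genome, is not given in the sources used here. Per the labels' protocols, total RNA came from frozen sections of 50 µm and the kit named is one for messenger RNA, and the library method is not known here. The 1 unnamed line was left out. No genome was used here, so no positions are given. An entry of several species can list the same read, so column totals are relative depths (22538325, 865654 and 5188106 counts).

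Counts were scaled by TMM factors over all entries with at least 30 counts in sum (edgeR 4.0.16, R 4.3.3), namely 0.966, 0.817 and 1.27. Ratios of scaled counts have exact conditional 95% intervals, shares have exact (Clopper-Pearson) intervals, and odds ratios and ratios of ratios have Woolf intervals on the log scale. For log2 ratios 0.5 was added to every count. A library at 0 stood at a floor of 3 counts. No test between conditions is possible with 1 library each. The calculation was tested on simulated data. Python 3.11.15, numpy 2.4.6, pandas 2.3.3, scipy 1.17.1 and matplotlib 3.10.9 were used, and DESeq2 1.42.0 for alternative size factors.

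The members, the microRNA lists and the alternatives were chosen with earlier results of these data known. Named were all Xenopus let-7 entries, the seed and cluster partner entries and xtr-miR-202-5p. Also named were other let-7 entries of equal sequence or higher count, list leaders and the 3 nearest profiles. Other let-7 forms named, and the blood microRNA xtr-miR-142-3p, were chosen after their values were seen. Alternatives were 5 other scalings, the authors' values, other filters, a fold of 1.5, 5 added counts and other choices of entries.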

Additional observations from a re-analysis of the deposited data

Results flagged for a closer look

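Some let-7 reads fell on pma-let-7c, aca-let-7c-1-3p and bta-let-7a-3p, entries outside the 7 Xenopus members. Of the let-7 results above, these entries entered only the total over all species. In the orphan and non-sibling libraries each of them exceeded the 3 counts that a count of 0 allows. Of these entries only pma-let-7c did so in the sibling library. No control library exists to set them against.

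pma-let-7c, a sea lamprey entry, joins the change of let-7f (G12A) with that of let-7c (A19G) and has no Xenopus counterpart among the 7 members.
pma-let-7c: uGAGGUAGuagauuguaugguu
It had 103, 12 and 58 counts (orphan, sibling, non-sibling). That was 1.43, 3.93 and 2.75% of the xtr-let-7f count, with intervals of 1.17 to 1.74%, 2.01 to 6.97% and 2.08 to 3.56%. Beside xtr-let-7f the orphan interval thus lay below both others, but let-7f itself had its highest family share in the orphan library. pma-let-7c also lies 1 base from xtr-let-7c, and whether the orphan library is lowest beside that member was not tested.

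The opposite arm of the let-7 precursors appears only under entries of other species. aca-let-7c-1-3p had 105, 1 and 15 counts, and bta-let-7a-3p had 55, 1 and 18 counts. The entries aca-let-7e-3p, aca-let-7f-1-3p and mmu-let-7a-1-3p had the same counts as bta-let-7a-3p. These counts therefore do not tell which member's precursor the reads came from.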

How the results depend on the processing

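No paired analysis was possible because each condition has 1 library, and none could be left out in turn. The log2 ratio of the let-7 total kept its sign under all 8 alternatives in each pair. However, 1 of these, merging entries of contained sequence, could not change it, since the members are already distinct sequences. For orphan over sibling (-0.94) it was -0.70 with total counts, -0.78 with the upper quartile, -1.05 with Xenopus entries, -0.82 with quantile-normalized values and -0.82 with let-7 of all species. For non-sibling over sibling (-0.64) it was -0.0060 with total counts, which is close to no difference. As a share of the counts on Xenopus entries, not among the alternatives, the non-sibling library stood above the sibling library (0.682 and 0.638%). The direction in this pair thus depends on the scaling. For orphan over non-sibling (-0.30) these 5 gave -0.69, -0.14, -0.44, -0.17 and -0.23. Total counts moved all log2 ratios by 0.24, 0.63 and -0.39 in these pairs. The 4 lower members in orphan over sibling became 1 with total counts, the upper quartile or quantile-normalized values. The 1 in non-sibling over sibling became 0 with total counts and 4 at a fold of 1.5, and the 0 in orphan over non-sibling became 1 with each of these. Of all entries, 24.4% passed either way in orphan over sibling, against 37.9% with quantile-normalized values and 40.1% at a fold of 1.5. In non-sibling over sibling it was 23.3%, against 38.9% with total counts and 42.4% at a fold of 1.5, and in orphan over non-sibling 20.1%, against 42.3% at a fold of 1.5.

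The let-7f share of 37.9% in the orphan library was 45.0% with entries of all species summed by letter, 37.05% with the leading entry per letter and 36.4% with quantile-normalized values. The non-sibling share of let-7f (29.9%) was 38.4% and 33.9% with the first and the last of these, and the sibling share of let-7e (27.03%) was 12.0% with the first, which counts letters listed under more species more often. With other entries of 1 sequence, chosen after seeing the data, let-7f over let-7e was 2.13 in the orphan library, and let-7f over let-7a was 1.55 instead of 1.76 there and 1.09 instead of 1.20 in the non-sibling library. For single members 118 of 147 ratios between libraries stayed within their interval and 29 did not, and none of the called ones changed sign. Elsewhere the cause was not tested. Depth limits the sibling library most, where let-7b, let-7g and let-7i rest on 13, 16 and 34 counts.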
